A study of Mus musculus with 84 samples.

Results

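The core circadian clock genes Arntl, Npas2, Clock, Nr1d1, Dbp, Ciart, Per1, Per2, Per3 and Cry1 were followed across the central nucleus of the amygdala (CeA) of 84 mice. They were chosen by name from a table of 43629 genes, each of the 10 names matched 1 row, and all 10 passed the filter on low counts that left 16320 genes to test. The mice, 43 females and 41 males, were outbred animals of the heterogeneous stock Collaborative Cross (HS-CC), which descends from crosses of inbred founders, with a median age of 15 weeks at the start of testing. All 84 had a choice of water and 10% ethanol for 13 weeks, so there was no ethanol-naive group. Ethanol was present until euthanasia, which fell between 10 AM and 2 PM, and no animal came from other hours. The light schedule is not given per animal in the sources used here. This window therefore cannot be placed in the light or dark phase. Tissue was laser-dissected from stained frozen sections and gave 1 poly(A) library per mouse. Up to 3 animals came from 1 of 48 families, and family, collection pass and clock time are not given per animal in the sources used here, so the animals were not fully independent.

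The mammalian clock is a feedback loop of transcription. ARNTL (also called BMAL1) pairs with CLOCK or NPAS2, and the pair binds E-box sequences and activates the Per, Cry, Nr1d1, Dbp and Ciart genes. PER, CRY and CIART proteins hold the activators back, and the nuclear receptor NR1D1 (REV-ERB alpha) represses Arntl and Npas2. In nocturnal rodents most brain regions outside the suprachiasmatic nucleus keep such a loop, in which Arntl peaks at a different time of day from Dbp and Nr1d1. How the arms varied with each other from animal to animal was therefore examined.

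The label names the CeA, a nucleus made up mostly of inhibitory neurons. Its markers Sst, Penk, Prkcd and Crh had counts in all 84 libraries, with a median of 350 CPM (counts scaled to a common library size) for Sst, 432 for Penk, 18.6 for Prkcd and 6.92 for Crh. Slc17a7, the vesicular glutamate transporter of cortical and basolateral neurons, ranged from 13.0 to 2405 CPM, and it exceeded Gad1, an enzyme of GABA synthesis, per kilobase of exon in 75 of 84 libraries. The summed CPM of 14 choroid plexus markers ran from 12.6 to 24675, of 16 striatal markers from 1065 to 10741 and of 16 cortical and basolateral markers from 1442 to 10608. Of 10 markers of the suprachiasmatic nucleus 7 passed the filter, and their list's summed CPM ran from 74.4 to 1576. Nms, Lhx1 and Six6 did not pass, and Prok2 had a median of 0.54 CPM. Vip had a median of 25.4 CPM (1.47 to 107), Grp one of 9.92 (up to 57.0) and Avp one of 4.07 (0.163 to 1503). In bulk tissue, fewer cells of a type and less RNA per cell cannot be told apart. Depth was similar across animals, at 24118965 to 42036566 counts per library.

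The arms were set by gene name: Arntl, Npas2 and Clock as activators, Cry1 on its own, and the other members as outputs. Upstream sequences are given as background for those output genes, and for Cry1, where a motif was found, and they played no part in setting the arms. RefSeq windows of 250 bases before a start site (build GRCm38.p6) were at hand for 9 of the 10 genes, all but Per2, and each motif was searched on both strands. The canonical E-box CACGTG was found upstream of Ciart (3 copies, 116, 58 and 44 bases before the start), Per1 (1 copy) and Cry1 (1 copy), and in 6.02% of all 32851 windows of the same length. The variant CACGTT was found upstream of Nr1d1 and Cry1, on the minus strand of the gene, and in 3.85% of all windows. The D-box TTATGTAA, which DBP and its relatives bind, was found at 2 places upstream of Per3, the farther one 205 bases before the start, and in 0.819% of all windows. No window of these 9 genes held the core of the ROR element TAGGTCA (2.23% of all windows) or the full cAMP response element TGACGTCA (1.55%), and the windows of Arntl, Npas2, Clock and Dbp held none of these 5 motifs. For these genes, bases past the start site or farther upstream were not searched. A motif missing from a window may therefore still be present in the gene, for Arntl and the ROR element as for the others. The half-site TGACG of the cAMP response element was found in both windows of Per1 and in that of Cry1, and in 17.8% of all windows. It lies outside the stretches printed below. Below, each stretch runs 5′ to 3′ on the strand of its gene, with the motif in capitals, from the reference strain, so alleles in HS-CC animals may differ.
Ciart, chr3:95882237-95882374, minus strand, with 3 E-boxes: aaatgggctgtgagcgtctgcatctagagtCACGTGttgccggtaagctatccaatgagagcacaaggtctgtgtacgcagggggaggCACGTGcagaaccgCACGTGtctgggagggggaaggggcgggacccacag
Per1, chr11:69098753-69098818, plus strand, with 1 E-box: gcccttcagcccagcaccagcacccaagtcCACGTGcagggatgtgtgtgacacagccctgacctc
Nr1d1, chr11:98775378-98775435, minus strand, with 1 E-box variant: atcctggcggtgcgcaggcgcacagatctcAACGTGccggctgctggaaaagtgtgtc
Cry1, chr10:85185079-85185163, minus strand, with 1 E-box and 1 variant: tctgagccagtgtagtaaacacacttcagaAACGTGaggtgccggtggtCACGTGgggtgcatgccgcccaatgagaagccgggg
Per3, chr4:151044786-151044900, minus strand, with 2 D-boxes: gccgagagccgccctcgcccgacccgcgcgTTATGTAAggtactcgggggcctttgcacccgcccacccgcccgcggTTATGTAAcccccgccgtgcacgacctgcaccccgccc
The Ciart stretch overlaps the annotated first exon by 15 bases, and the other stretches overlap no annotated exon. The Per1 stretch lies before an internal start, 3732 bases inside the gene as the table gives it, and is intronic there. A match is a string of letters, and no binding was measured in this study.

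All 10 genes were well counted, with a highest single count of 6545 for Dbp and the lowest counts for Ciart. Of the activators, Arntl (ENSMUSG00000055116, chr7:113207465-113314122, plus strand) had 15.4 CPM in the lowest animal, 24.2 in the median and 34.1 in the highest. Npas2, the partner of ARNTL that is prominent in the forebrain, ran from 14.8 through a median of 43.7 to 79.3 CPM. Clock ran from 29.5 through 63.0 to 94.0 CPM. Npas2 varied more between animals than Arntl did, with an SD of 0.432 against 0.218 on the log2 CPM scale.

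Among the outputs, Dbp (ENSMUSG00000059824, chr7:45705088-45710155, plus strand), a PAR bZIP factor that binds D-boxes, ran from 56.1 through 113 to 222.7 CPM. Ciart (ENSMUSG00000038550, chr3:95878503-95882251, minus strand), also called CHRONO, ran from 6.13 through 13.8 to 31.5 CPM. Nr1d1 ran from 39.3 through 90.5 to 141 CPM, and its lowest value was set apart in 1 male, replicate 39, with the next at 52.0 CPM. The plot of levels shows that females and males overlapped almost fully for each of these genes.

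**Figure D1:**
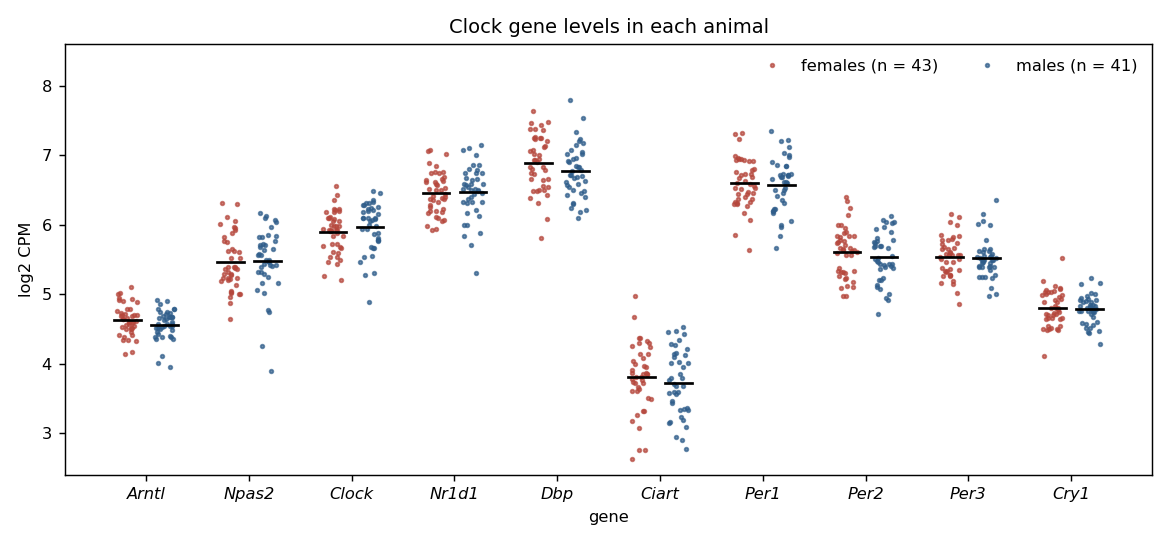
Level of each clock gene in each animal, as log2 CPM, in 43 females and 41 males, with a black line at each mean. The sexes overlap for every gene, and Ciart, with an SD of 0.48 over all 84 animals, is the most spread and Arntl, with 0.218, the least.

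The period genes, whose proteins form the repressor complex, differed among themselves. Per1 ran from 49.8 through 97.6 to 163 CPM, Per2 from 26.1 through 49.0 to 84.5 and Per3 from 28.98 through 45.6 to 81.9. Cry1, the cryptochrome that closes the loop, ran from 17.3 through 27.7 to 46.0 CPM and was among the steadiest of the 10, with an SD of 0.229. Among the 10653 genes whose log2 CPM averaged 3 or more, the median SD was 0.241, and 8 of the 10 clock genes lay above it. Sampling of reads alone would give an SD of 0.025 for Dbp and 0.072 for Ciart, so the spread between animals was several times larger than counting error.

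Per kilobase of exon, Dbp was the most abundant with a median of 38.5 CPM per kilobase, followed by Nr1d1 with 29.4 and Per1 with 17.3. Dbp exceeded Nr1d1 in 75 of 84 animals, Nr1d1 exceeded Per1 in all 84, and Per1 exceeded Cry1 in 83. Cry1 (9.20), Npas2 (9.11), Clock (8.43), Per2 (8.37) and Arntl (8.34) came next. Among these 5 the median log2 ratio of each neighbour to the next, -0.06 to 0.22, was smaller than its SD between animals, 0.27 to 0.45. Ciart (6.12) and Per3 (4.74) were lowest. The median log2 ratios of Dbp to Nr1d1 (0.36, SD 0.37), Arntl to Ciart (0.42, SD 0.49) and Ciart to Per3 (0.34, SD 0.50) were also within their SD. Part of Dbp's exon sequence, 18%, overlaps Sphk2 on the other strand, and 8.55% of Nr1d1's overlaps Thra. The strand setting of the counting is not given in the sources used here, so reads in those overlaps cannot be assigned.

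The clock genes were mostly positively correlated from animal to animal. Over the 45 pairs of the 10 genes, Pearson's r of log2 CPM was positive in 42, and 30 pairs passed a 2-sided permutation test (100000 permutations, Benjamini-Hochberg adjustment over the 45 pairs, threshold 0.05). Of those 30, 29 were positive and 1 was negative. The weakest called r was 0.246, and 17% of all 133163040 pairs of tested genes had an r at least as high while 16.9% had one as low on the negative side. Among pairs of the 10653 genes whose log2 CPM averaged 3 or more, these shares were 22.2% and 21.3%. The pairs share animals and libraries, so they are not independent of each other. The count called was 28 by Spearman's rho, 19 in females alone and 22 in males alone.

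Dbp and Ciart were the closest pair. Their r was 0.83 and rho 0.84 (permutation p = 1e-05 for both, the smallest that 100000 permutations can give, adjusted p = 3.75e-05 for r). Without the 2 animals farthest from the median of Dbp, r was 0.82. In the 4 runs of sample-sheet numbers, which are explained with the results by run, it was 0.72, 0.84, 0.84 and 0.89. Ciart ranked 1 of 10652 genes by its r with Dbp, and Dbp ranked 1 by its r with Ciart. Nr1d1 and Per1 had an r of 0.74 and a rho of 0.70 (within runs 0.73, 0.70, 0.70 and 0.80), and Per1 ranked 5 of 10652 by its r with Nr1d1. Per1 and Per2 had an r of 0.69 and a rho of 0.71 (within runs 0.78, 0.71, 0.72 and 0.77). Each of these had a permutation p of 1e-05 by r and by rho, and r without the 2 farthest animals was 0.70 for both. Dbp and Per2, by contrast, had an r of 0.12 (adjusted permutation p = 0.294), so the 6 outputs did not form 1 even group.

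Among the activators, Arntl and Npas2 had an r of 0.71 and a rho of 0.66 (adjusted permutation p = 3.75e-05 for r), and r by run was 0.53, 0.75, 0.81 and 0.68. Npas2 ranked 27 of 10652 by its r with Arntl. Clock followed less closely, with an r of 0.46 with Npas2 and 0.33 with Arntl. All 3 pairs passed the test, as did 11 of the 15 pairs among the outputs.

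**Figure D2:**
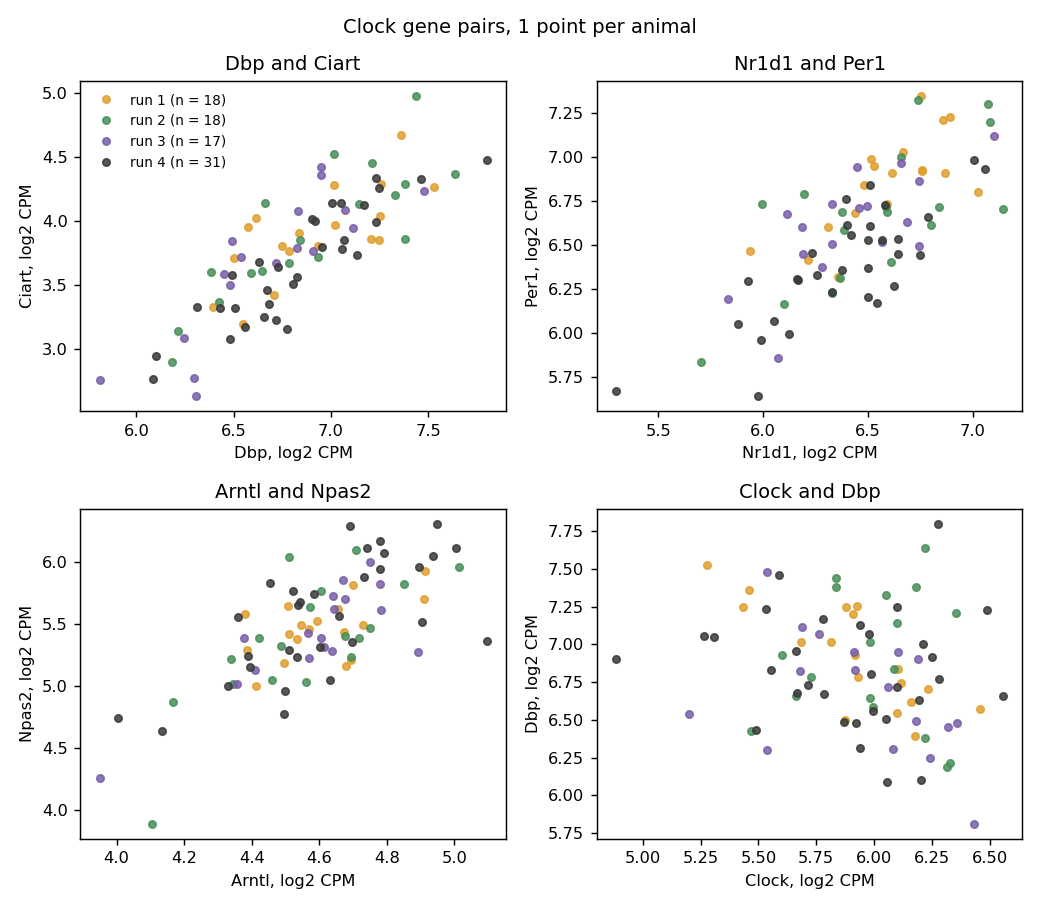
Levels of 4 pairs of clock genes as log2 CPM on both axes, with 1 point per animal coloured by the run of sample-sheet numbers. Dbp and Ciart (r = 0.83), Nr1d1 and Per1 (0.74) and Arntl and Npas2 (0.71) rise together, while Clock and Dbp (-0.26) lean the other way with wide scatter.

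Between the activators and the outputs, opposed levels were seen for Clock with Dbp and were otherwise not the rule. Of the 18 pairs that join an activator to an output, 16 had a positive r, 11 were called positive, and the median r was 0.30. The highest were Arntl with Per2 (0.64), Npas2 with Per2 (0.61) and Npas2 with Nr1d1 (0.56). Clock and Dbp had an r of -0.26 and a rho of -0.28 (permutation p = 0.0188 and 0.0092, adjusted p = 0.0302 and 0.0159), and Clock and Ciart an r of -0.19 (adjusted permutation p = 0.0957). For Clock and Dbp, r was -0.30 without the 2 animals farthest from the median of Clock, and within runs it was -0.80, 0.01, -0.46 and -0.09, so the negative relation was near 0 in 2 of the 4 runs. Arntl and Dbp had an r of 0.22 (adjusted permutation p = 0.0687) and differed in sign between runs, at -0.04, 0.47, -0.33 and 0.44.

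Markers of CeA neurons and of neighbouring cell types moved with several of these genes. A score of each marker list, the mean of its genes' standardised log2 CPM, was set beside each clock gene over the 84 animals as a description, both taken from the same libraries. Arntl, Npas2, Nr1d1, Per1 and Per2 followed the cortical and basolateral score, with r of 0.63, 0.62, 0.53, 0.46 and 0.45, and Clock did so less closely (0.34). Dbp, Cry1 and Per3 followed the striatal score, with r of 0.62, 0.58 and 0.55. With the score of central amygdala neurons their r was 0.32, 0.45 and 0.42, while the other clock genes ranged from -0.29 (Per1) to 0.08 (Ciart). That list includes Gad1, Gad2 and Slc32a1, genes of inhibitory neurons at large, so its score is not specific to the CeA. Dbp ran against the ependymal and choroid plexus scores (-0.47 and -0.45). Arntl and Npas2 ran against the score of thalamic, hypothalamic and medial amygdala neurons (-0.58 and -0.64).

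Once sex, run and the scores of 12 cell type lists were taken out of each gene, an adjustment chosen after the data had been seen, the pattern between the arms was different. Of the 45 pairs, 23 were called, 18 positive and 5 negative, and all 5 negative ones joined an activator to an output. They were Clock with Dbp (-0.47, adjusted permutation p = 0.000135), Arntl with Dbp (-0.35, 0.00291), Clock with Ciart (-0.33, 0.00526), Arntl with Ciart (-0.28, 0.0214) and Arntl with Nr1d1 (-0.26, 0.0338). As many activator-output pairs, 5, were called positive: Arntl with Per2 and Per3, Npas2 with Per1 and Per2, and Clock with Per2. Of the 18 activator-output pairs 10 had a positive r, and the median r was 0.05. Npas2 had an r of -0.01 with both Dbp and Ciart. These permutations do not count the covariates removed, so their p-values are somewhat too small. The share of all gene pairs with an r as far from 0 was not computed after this adjustment. Whether these counts are particular to the clock genes was therefore not tested. The close pairs stayed positive, with r of 0.70 for Dbp and Ciart, 0.65 for Nr1d1 and Ciart, 0.63 for Per1 and Per2 and 0.59 for Nr1d1 and Per1. Arntl was positive with Cry1 (0.44) and Per2 (0.39), and Per2 with Cry1 (0.59). With 2 principal components of all tested genes in place of the 12 scores, r of Arntl with Dbp was 0.23, so the sign depended on the adjustment used. Which of these adjustments is the right one was not tested, and neither clock time nor pass is known per animal.

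**Figure D3:**
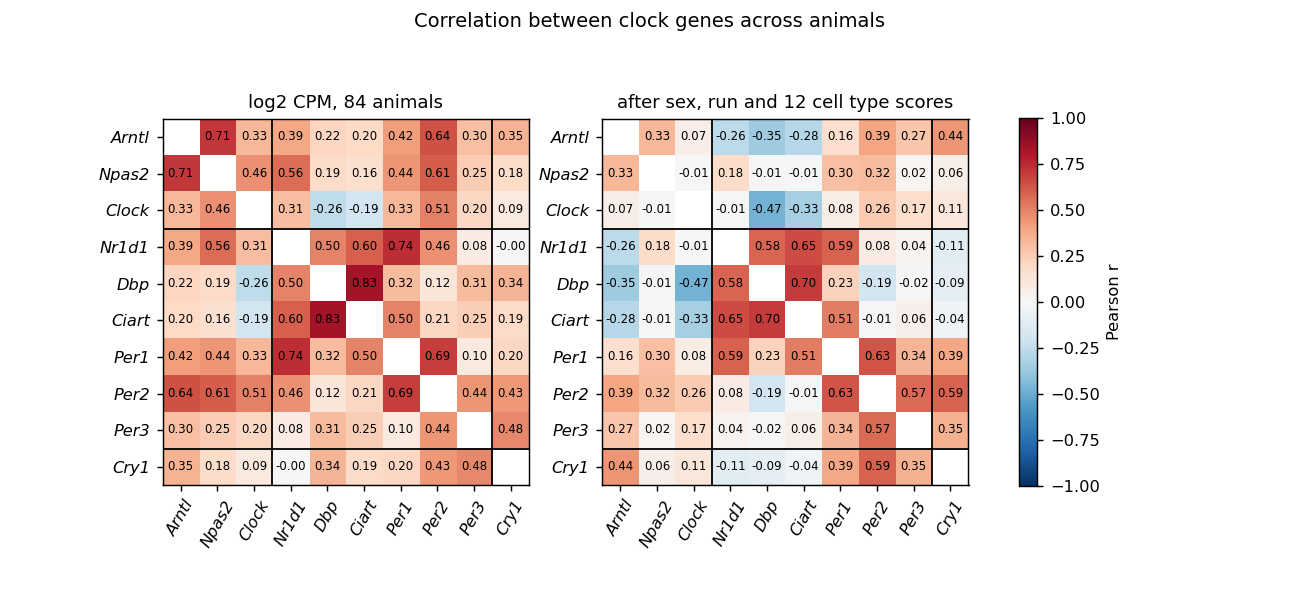
Pearson's r between the 10 clock genes over 84 animals, before (left) and after (right) removal of sex, run and 12 cell type scores, with lines between activators, outputs and Cry1. On the left 42 of 45 values are positive, and on the right Arntl and Clock are negative with Dbp and Ciart, at -0.28 to -0.47. Npas2 is at -0.01 with both on the right, where 10 of the 18 pairs that join an activator to an output are positive.

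The same question was put to all genes at once by fitting each gene's counts on the log2 CPM of Dbp, with sex and run as covariates (edgeR quasi-likelihood F-test, Benjamini-Hochberg adjustment over 16319 genes). Slopes are log2 changes per 1 log2 unit of Dbp. Of the 9 other clock genes, 5 rose with Dbp and 0 fell. Over all genes 15.3% rose and 18.5% fell, among them all 16 striatal markers tested, which rose. Ciart rose by 1.04 ± 0.08 (SE, n = 84; adjusted p = 2.78e-18 by edgeR), the smallest p of all 16319 genes, so it changed about in proportion to Dbp. Nr1d1 (0.44 ± 0.08), Per3 (0.29 ± 0.07), Per1 (0.27 ± 0.09) and Cry1 (0.21 ± 0.06) rose less. Clock had a slope of -0.20 ± 0.09 (adjusted p = 0.0753 by edgeR), and Arntl, Npas2 and Per2 had slopes of 0.11, 0.21 and 0.10 that were not called.

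With the 12 cell type scores as further covariates, 3 clock genes were called in the fit on Dbp. Ciart (1.03 ± 0.13, adjusted p = 2.21e-07 by edgeR) and Nr1d1 (0.63 ± 0.11, adjusted p = 0.000511) rose, where 2.54% of all genes rose, and Clock fell by 0.50 ± 0.11 (adjusted p = 0.00607), where 3.32% of all genes fell. Arntl had a slope of -0.21 ± 0.07 and did not pass (adjusted p = 0.0538). Unlike the permutations above, this fit counts its covariates. Per1 (0.25 ± 0.13), Per3 (-0.01 ± 0.10) and Cry1 (-0.07 ± 0.10) were then not called.

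Fitted on Arntl, 7 of the 9 other clock genes rose and 0 fell, where 19.5% of all genes rose and 19.7% fell. Npas2 rose by 1.44 ± 0.16 log2 units per 1 log2 unit of Arntl (SE, n = 84; adjusted p = 2.89e-11 by edgeR), Per2 by 1.07 ± 0.14, Per1 by 0.77 ± 0.14 and Nr1d1 by 0.67 ± 0.16. Clock (0.55 ± 0.16), Per3 (0.41 ± 0.12) and Cry1 (0.36 ± 0.11) also rose, while Dbp (0.41 ± 0.19, adjusted p = 0.0813) and Ciart (0.50 ± 0.23, adjusted p = 0.0822) did not pass. In this fit 15 of 16 cortical and basolateral markers and 21 of 26 immediate early genes also rose, and all 15 myelin markers fell. With the 12 cell type scores none of the 9 clock genes was called, and over all genes 0.0306% rose and 0% fell. The slopes of Dbp, Ciart and Nr1d1 then were -0.62 ± 0.20, -0.76 ± 0.29 and -0.51 ± 0.22, and those of Per2 and Cry1 were 0.84 ± 0.23 and 0.62 ± 0.16.

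Of 24 further clock genes, all tested, 11 were called in the fit on Dbp, 7 higher and 4 lower, where 15.3% of all genes rose and 18.5% fell. Hlf (0.46 ± 0.09) and Tef (0.18 ± 0.04), the PAR bZIP relatives of Dbp, rose with it, as did Nr1d2 (0.26 ± 0.05), the paralog of Nr1d1. Nfil3, which competes with these factors at D-boxes, fell by 0.32 ± 0.07. The deubiquitinase gene Usp2 (0.34 ± 0.08), the repressor gene Bhlhe41 (0.23 ± 0.07), Cry2 (0.17 ± 0.06) and the kinase gene Csnk1e (0.15 ± 0.05) rose. Arntl2 fell by 0.31 ± 0.11, Fbxw11 by 0.19 ± 0.04 and Csnk1d by 0.14 ± 0.04. With the cell type scores in the fit, Usp2 (0.34 ± 0.10) and Bhlhe41 (0.29 ± 0.09) rose, Hlf had a slope of 0.16 ± 0.11, Nfil3 one of -0.21 ± 0.12 and Nr1d2 one of 0.10 ± 0.08, and none of the last 3 was called.

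In the fit on Arntl, 13 of the 24 were called, where 39.19% of all genes were. Hlf rose by 1.14 ± 0.14, Bhlhe40 by 0.86 ± 0.16, Usp2 by 0.79 ± 0.13, Cry2 by 0.66 ± 0.08 and Tef by 0.45 ± 0.07. Rorb (0.74 ± 0.17) and Rora (0.67 ± 0.18), nuclear receptors that activate Arntl, rose. Timeless (0.53 ± 0.18), Csnk1e (0.32 ± 0.08) and Gsk3b (0.30 ± 0.11) rose, and Bhlhe41 fell by 0.34 ± 0.12. Rorb is also on the list of cortical markers. With the 12 cell type scores, 0 of these 24 were called.

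The genes outside the pathway that were most like Dbp over the 84 animals, among 10652 genes whose log2 CPM averaged 3 or more, were Mpped2 (r = 0.77), Ngef (0.76), Car11 (0.75), Ppp1ca and Pcp4 (both 0.74), Them6, Ccm2 and Lmo2 (each 0.73) and Hras (0.72). With Ciart these are the 10 with the highest r. The lowest were Fmnl2 (-0.71), Pcdh8 and Timp2 (both -0.70), then Ctbp2, C530008M17Rik, Lpin2, Ate1, Crim1, Zfp423 and Pip5k1b (-0.68 to -0.67). For Arntl the highest were Baiap2 (0.82), Cx3cl1 (0.78), Syne1 (0.76), Plk2 and Camkk2 (both 0.75), and the lowest were Leprel4 (-0.78), Sparc (-0.71), Maged2 (-0.70), Ppm1m and B630019K06Rik (both -0.67). Baiap2 encodes a synaptic scaffold protein, Pcp4 a calmodulin-binding protein and Sparc a secreted matrix protein. In the same animals all 14 choroid plexus and all 14 ependymal markers fell in the fit on Dbp, and the part of cell make-up in these likenesses was not tested gene by gene.

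Collection ran in 4 passes, and pass is not given per animal. The labels hold 1 order that might relate to it: sample-sheet numbers in the titles form 4 runs of 18, 18, 17 and 31 animals, within which they ascend apart from 1 pair of neighbours in run 3, and animal numbers also rise from run to run. Runs may equally reflect library preparation, and run and pass cannot be told apart from these labels. Of the 10 clock genes, Per1 and Per3 differed between runs (edgeR quasi-likelihood F-test on 3 coefficients, with sex as a covariate; adjusted p = 0.0027 and 0.00862). Over all genes 21.7% differed, so 2 of 10 is near that background.

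Per1 had a median of 120 CPM in run 1 (79.8 to 163), 103 in run 2 (57.1 to 160), 98.9 in run 3 (57.8 to 139) and 82.5 in run 4 (49.8 to 126.1). Run 4 was lower than run 1 by 0.46 on the log2 scale, though the ranges overlapped. Per3 went the other way, with a median of 39.4 CPM in run 1 (28.98 to 48.6) and 47.0, 47.1 and 47.0 in runs 2, 3 and 4. Run 4 was higher than run 1 by 0.34, and runs 2 to 4 lay close together. The 3 period genes thus did not share 1 course, since Per2 had mean log2 CPM of 5.63, 5.57, 5.59 and 5.52 (adjusted p = 0.894 by edgeR). Arntl (4.60, 4.55, 4.58 and 4.62; adjusted p = 0.812) and Dbp (6.92, 6.90, 6.67 and 6.83; adjusted p = 0.357) were not called either.

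**Figure D4:**
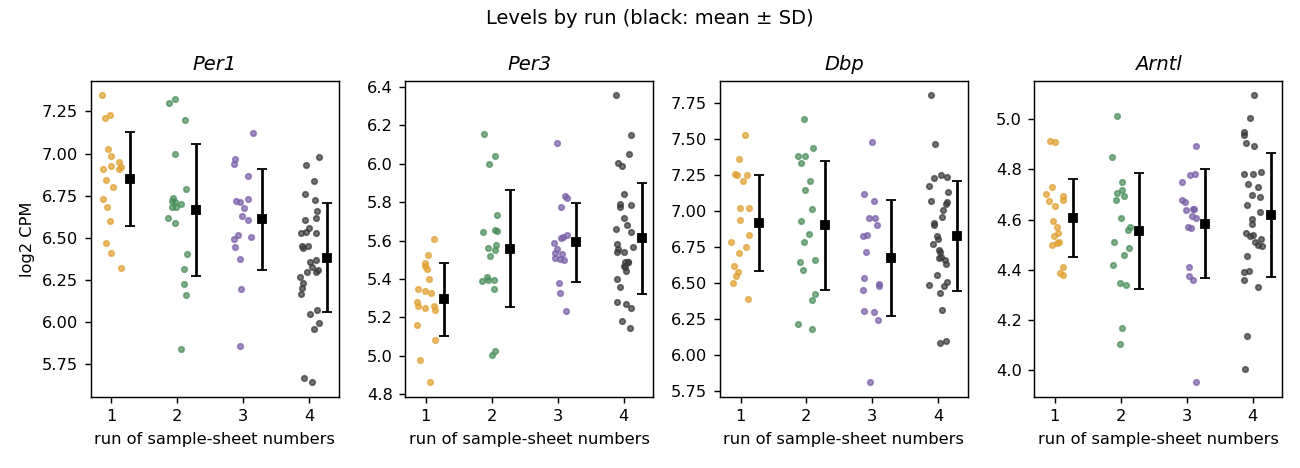
Levels of Per1, Per3, Dbp and Arntl as log2 CPM by run of sample-sheet numbers, with 1 point per animal and the mean ± SD of each run in black. Per1 is lower in run 4 than in run 1 (mean 6.38 against 6.85) and Per3 higher (5.61 against 5.29), while the means of Arntl lie between 4.55 and 4.62.

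The other lists are read against the 21.7% of all genes that differed between runs. Of 26 immediate early genes, which like Per1 respond to neuronal activity, 19 were called and all 19 were lower in run 4 than in run 1, by a median of 0.62 over the list (log2 scale), where the median of all genes was 0.02. Junb was lower by 0.80 and Dusp1 by 0.84. Markers on the central amygdala list (10 of 17 called), which is not specific to the CeA, and of myelin (9 of 15 called) were higher in run 4. Of the leptomeningeal markers, 9 of 12 were lower. Of the 24 further clock genes 5 were called, a share near that of all genes: Bhlhe40, Rora and Nfil3 were lower in run 4 by 0.54, 0.38 and 0.27, and Bhlhe41 and Sirt1 were higher by 0.26 and 0.12. With the 12 cell type scores in the fit, neither Per1 (adjusted p = 0.38) nor Per3 (adjusted p = 0.145) was called, where 2.25% of all genes were.

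The design asked how expression relates to ethanol preference, that is, ethanol solution as a share of all fluid consumed. Mean preference ran from 0.0262 to 0.759 with a median of 0.199. None of the 10 clock genes was called for mean, week 1 or week 13 preference, in all animals, in females or in males (edgeR quasi-likelihood F-test, adjusted over 16320 genes). Fits in all animals had sex as a covariate. The share of all genes called was 0% for mean preference in each of the 3 sets of animals. For week 1 it was 0.0306% in all animals, 0% in females and 0.0368% in males, and for week 13 it was 0% in all animals, 0.0368% in females and 0% in males. No clock gene was called under any of the 104 alternative fits of preference, its interaction with sex, or sex.

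Slopes on mean preference in all 84 animals were small. Per 0.5 rise in preference, Arntl had -0.02 ± 0.08 log2 units (SE), Npas2 -0.07 ± 0.15 and Clock 0.07 ± 0.11. Nr1d1 had -0.09 ± 0.12, Dbp -0.10 ± 0.14 and Ciart -0.14 ± 0.17. Per1 had -0.05 ± 0.13, Per2 0.11 ± 0.12, Per3 0.05 ± 0.10 and Cry1 -0.01 ± 0.08. The smallest unadjusted p was 0.373, and every adjusted p was 1.00 after rounding (edgeR). The 95% intervals ran from -0.17 to 0.13 for Arntl and from -0.47 to 0.19 for Ciart. The 24 further clock genes had slopes from -0.14 to 0.30 and none was called.

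In week 13 the sexes leaned apart without passing the test. In females Dbp had a slope of -0.29 ± 0.14 (n = 43; unadjusted p = 0.0391, adjusted p = 0.515 by edgeR), and in males it had 0.14 ± 0.15 (n = 41). In males Cry1 had a slope of 0.20 ± 0.08 (unadjusted p = 0.014, adjusted p = 0.987 by edgeR), and in females it had -0.12 ± 0.09. The difference between the sexes, fitted because these slopes had been seen, was 0.43 ± 0.21 for Dbp (adjusted p = 0.784 by edgeR) and 0.32 ± 0.12 for Cry1 (adjusted p = 0.657). It was above 0 for all 10 clock genes, from 0.13 to 0.43, where 47.6% of all genes were above 0. These genes are correlated with each other, so their signs are not separate observations. Of the 10, 0 were called, with 0.00613% of all genes called. The striatal markers had a median difference of 2.06 in the same fit and the choroid plexus markers one of -2.65. With the 12 cell type scores in the fits, the slope of Dbp was 0.09 ± 0.13 in females and -0.01 ± 0.10 in males, and that of Cry1 was 0.05 ± 0.09 in females and 0.14 ± 0.08 in males.

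**Figure D5:**
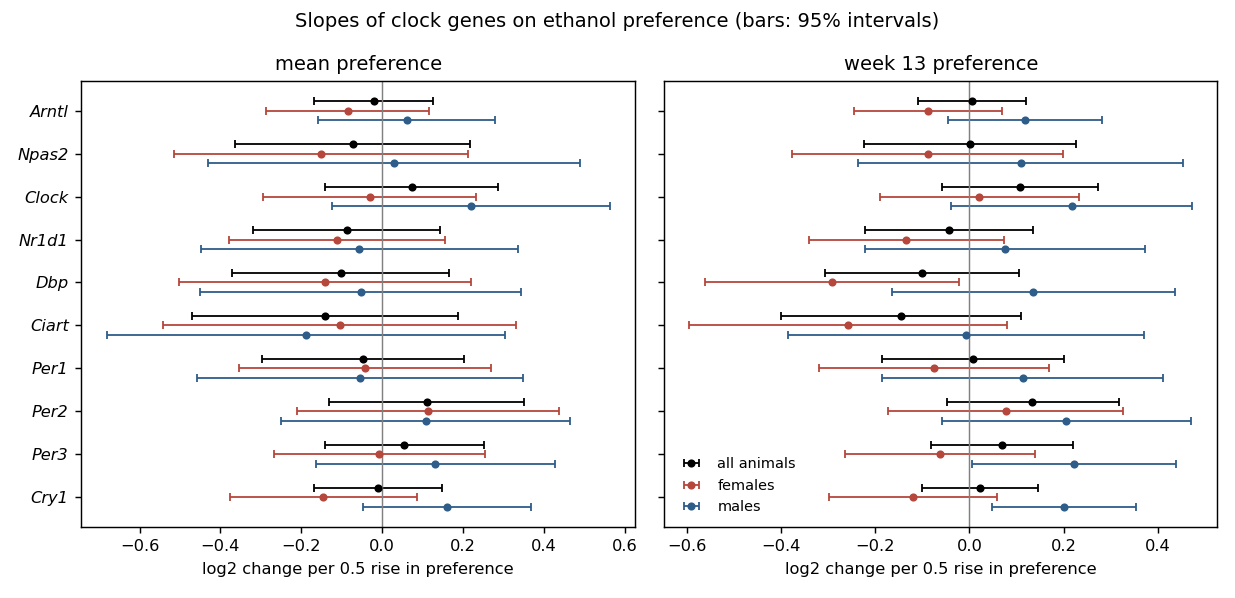
Slopes of the 10 clock genes on mean preference (left) and week 13 preference (right), as log2 change per 0.5 rise in preference, in all animals (black), females (red) and males (blue), with bars for the 95% intervals. No gene passes the adjusted threshold, and in week 13 the slope of Dbp is -0.29 in females and 0.14 in males.

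For mean preference the difference of slopes between the sexes was also not called for any clock gene (0% of all genes called), and it was largest for Cry1, at 0.31 ± 0.16 (adjusted p = 0.999 by edgeR). Levels themselves, fitted with mean preference as a covariate, did not pass the test between the sexes for any of the 10 genes, with 0.0858% of all genes called. The medians given next are not adjusted for preference. Dbp was lower in males by 0.15 ± 0.09 on the log2 scale (medians of 122 CPM in females and 105 in males; adjusted p = 0.943 by edgeR). Clock had medians of 60.5 CPM in females and 66.7 in males, a difference of 0.09 ± 0.07. Cry1 (27.8 and 27.7 CPM) and Per1 (96.0 and 97.9 CPM) had nearly equal medians.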

How the data were processed

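The authors deposited raw counts, 1 column per mouse and 1 row per gene, per the labels. The submitters' processing notes name build GRCm38 and, in no stated order, STAR, featureCounts 1.6.0 from Subread, FastQC and DESeq2. A further 8 columns (3 of undetermined reads, 5 empty) were not used, 12779 genes had no count, and 27 symbols that a spreadsheet had turned into dates were restored. The clock genes and the gene lists were chosen with earlier results of these data known. Replicate numbers follow listing order.

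Genes were kept by edgeR's filterByExpr by sex (minimum count 10, minimum total 15). CPM used TMM factors, and log2 CPM added a prior count of 2. Slopes come from edgeR 4.0.16 (R 4.3.3), robust quasi-likelihood F-test with Benjamini-Hochberg adjustment and a threshold of 0.05, with SE taken as the log2 change over the square root of F. Genes named beside the 10 were further clock genes called in the fit described (a few are not reported here), and those with the highest and lowest r, 10 each for Dbp and 5 each for Arntl. Other lists are given by count and median, with up to 3 genes of smallest p. The slope tests were tested on simulated counts. Alternatives were DESeq2 1.42.0, limma 3.58.1 with voom, RLE factors, no filter, run or 2 principal components as covariates, intake or rank in place of preference, each sex, each run, and 1 male left out. The 12 cell type scores and the sex by week 13 preference fit were added after the data had been seen. P-values set an effect against the spread between animals, which were treated as independent although up to 3 came from 1 family.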

Additional observations from a re-analysis of the deposited data

How the results depend on the processing

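For the counts of clock genes or pairs called, 9 alternatives moved the value by more than 1.5 times and the others did not, and the cause was not tested. With the 12 cell type scores, 0 clock genes were called between runs, 3 in the fit on Dbp and 0 in the fit on Arntl. In females alone, 3 were called in the fit on Dbp and 4 in the fit on Arntl, and in males alone 3 in the fit on Dbp. Pairs called were 19 in females, 6 within run 1 and 8 within run 3, each on fewer animals. Without male replicate 39 the counts were 5 for the fit on Dbp, 7 for the fit on Arntl and 32 for the pairs. The shares of all genes called in the fits of each sex and in those without this male are not reported here. Those counts therefore describe how the fits vary, and not the clock genes in particular. Alternatives were tallied for the slopes on mean preference in all animals, the fits on Dbp and Arntl, Per1 and Per3 by run, the slopes of Dbp in females and Cry1 in males on week 13 preference with their sex differences, and 10 of the 45 pairs. Of these, 377 alternatives stayed the same, 8 passed the threshold anew, 33 no longer passed it and 31 changed sign.

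None of the slopes on preference that changed sign was called. For mean preference in all animals, intake in place of preference gave 0.0153 for Arntl, 0.0450 for Npas2 and 0.0215 for Cry1. The rank of preference gave 0.0539 for Arntl, 0.0440 for Npas2, 0.000379 for Dbp, 0.0307 for Per1 and 0.0670 for Cry1. With 2 principal components the slopes were 0.0487 for Dbp, 0.000528 for Ciart and 0.0284 for Cry1, and with the 12 cell type scores -0.0936 for Clock, 0.051 for Dbp and 0.0509 for Cry1. For week 13 in females the scores gave 0.0893 for Dbp, and week 13 slopes of other clock genes, outside the tally, also changed sign with them. Over all 45 pairs, 3 were negative as reported and 15 with the scores. In the fit on Dbp the scores gave -0.206 for Arntl, -0.0203 for Npas2, -0.244 for Per2, -0.00932 for Per3 and -0.0707 for Cry1, and in the fit on Arntl -0.509 for Nr1d1, -0.616 for Dbp and -0.757 for Ciart. Among pairs, Clock with Dbp had an r of 0.0132 within run 2. Arntl with Dbp had -0.355 with the scores, -0.0364 within run 1 and -0.329 within run 3. Arntl with Ciart had -0.282 with the scores, -0.143 within run 1 and -0.164 within run 3, and Arntl with Nr1d1 had -0.259 with the scores.

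No paired analysis was possible because replicate numbers follow listing order and pair no animals. Families are not given per animal, so related animals entered as independent. Counting error was small beside the spread between animals.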

Other observations

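Other gene groups also moved with the level of Dbp or Arntl over the 84 animals, in the fits with sex and run as covariates (edgeR quasi-likelihood F-test). Over all genes 15.3% rose and 18.5% fell in the fit on Dbp, and 19.5% rose and 19.7% fell in the fit on Arntl. In the fit on Dbp, 5 of 12 cold-inducible and heat shock genes fell and 1 rose, with Hspa1b falling by 0.64 and Hspa1a by 0.53 log2 units per 1 log2 unit of Dbp, and 8 of 15 astrocyte markers fell. Of 26 immediate early genes 7 were higher and 4 lower in that fit. In the fit on Arntl, Homer1 rose by 2.13 and Npas4 by 2.71, 8 of 17 glucocorticoid-responsive genes fell and 1 rose, and 13 of 15 thalamic, hypothalamic and medial amygdala markers fell. In the fit by run with the 12 cell type scores, 5 of 26 immediate early genes were called, all lower in run 4 than in run 1, where 2.25% of all genes were called.

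Over the 10 clock genes, the first 3 principal components of log2 CPM held 41.99%, 19.9% and 14.5% of the variance. On the second, Dbp (0.55) and Ciart (0.53) had loadings opposite in sign to Clock (-0.49). Per2, also an output, had -0.25, beside Npas2 with -0.23 and Arntl with -0.19. The remaining genes lay between 0.002 (Per3) and 0.14 (Nr1d1), so this component did not separate the activators from the outputs.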
